A study of Mus musculus with 8 samples.

Results

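The transcripts described here are those of 10 mouse genes for drug and metabolite transporters, the ATP-driven exporters Abcc2, Abcc4, Abcc6, Abcb1a, Abcb1b and Abcg2, the organic anion carriers Slco1a1, Slco1a6 and Slco4c1, and the proton-coupled exporter Slc47a1. The genes were chosen by name from transporter families, with earlier results of these data known. They were found by Ensembl identifier among 49315 gene IDs, each with 1 ID. Of the 10, 9 passed the filter on low counts, as did 18485 genes in all, and Slco1a1 did not. The series measured polyadenylated RNA of whole frozen mouse kidney in 4 libraries with the genotype Control, called wild type in the labels' extraction protocol, and 4 with the genotype Conditional Knockout, in which the target was Kdm1a, the gene of LSD1, a demethylase acting on histone lysines. The Cre driver, the floxed allele, the age and sex of the mice, any genotype shared by both groups and the number of mice behind each library are not given in the sources used here. Nothing in the labels says that the libraries of a group came from separate mice, so p-values measure the spread between these libraries.

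Epithelial cells of the proximal tubule clear drugs, toxins and conjugated metabolites from blood in sequential steps. Carriers on the blood side take the compound up, and exporters on the brush border, driven by ATP (the ABC family) or by proton exchange (the MATE family), release it into the urine. Organic anion carriers of the Slco family (OATP proteins) lie on either side, and P-glycoprotein, which Abcb1a and Abcb1b encode in the mouse, is also known from capillaries of the brain and from the adrenal cortex.

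Total counts were between 19524945 and 28544511 per library, and 1 count was worth between 0.0346 and 0.0502 CPM (counts per 1000000, scaled to the effective library sizes). Kdm1a, the check of the labels, was at 110 to 120 CPM in the controls and at 90.9 to 95.3 CPM in the knockouts, lower by a log2 fold change of -0.27 ± 0.054 (SE; edgeR's quasi-likelihood test, adjusted p = 0.0194), and counts over the whole gene include exons outside any deleted part. The first principal component (62.7% of the variance) placed control 2 and knockout 3 between the other controls and the other knockouts. Xist was high, and Y-linked transcripts low, in control 2, knockout 1 and knockout 4, and the opposite held in the other 5 libraries. Transcripts of 11 adrenal genes summed to 2700 CPM in knockout 1, 365 CPM in knockout 4 and 154 CPM in control 4, against 17.7 to 24.7 CPM in the other 5. All 15 proximal tubule markers were present in each group, and all 15 fell in the knockouts, from sums of 662 to 2576 CPM to sums of 142 to 471 CPM. In whole tissue, fewer cells of a type and less RNA per cell cannot be told apart.

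Of the 9 transporters tested, 5 changed at an adjusted p under 0.05 (termed a call), against 14.9% of all genes tested. Abcc2, Slco1a6, Slc47a1 and Abcg2 fell, which is 4 of 9 against 8.27% of all genes, and Abcc6 rose, which is 1 of 9 against 6.61%. In the same 5 genes the control and knockout libraries did not overlap, 4 of them lower and 1 higher in the knockouts, against 9.58% and 9.29% of all genes. Because the members were chosen with earlier results known, these shares are a description only. The median log2 fold change of the 9 was 0.042, beside 0.0044 for all genes, so the group held members on both sides and no common direction.

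**Figure D1:**
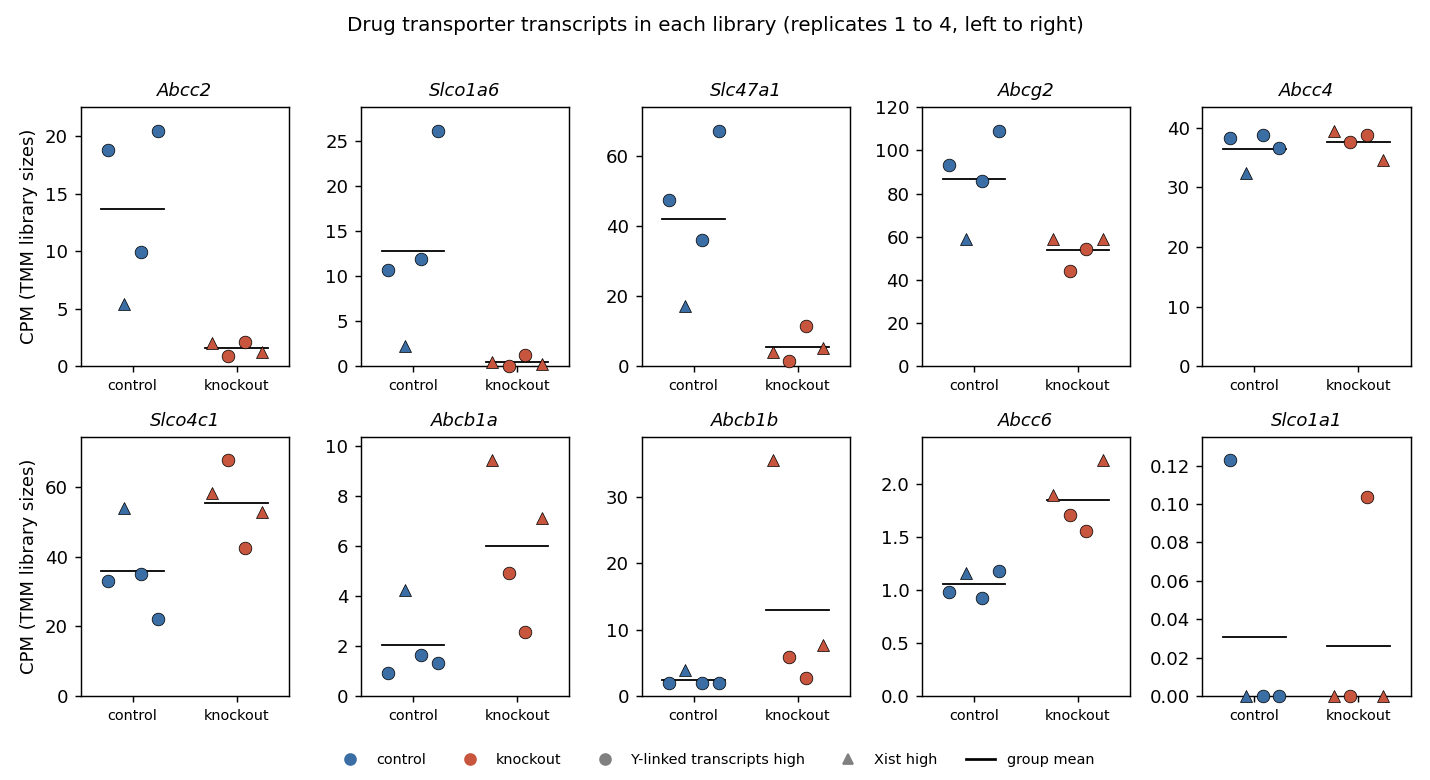
Level of each of the 10 transporters in CPM (vertical axes, from 0, with a scale of their own per panel) in the 4 control and 4 knockout libraries, replicates 1 to 4 from left to right; lines are group means and triangles are libraries with high Xist. Abcc2, Slco1a6, Slc47a1 and Abcg2 show all knockout points under all control points, Abcc6 the opposite, and the remaining panels overlap.

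Among the apical exporters, Abcc2 (MRP2) pumps glucuronide and glutathione conjugates into urine and bile. The gene (ENSMUSG00000025194) lies on the plus strand at chr19:43782192-43840740 of GRCm38. Part of its RefSeq promoter window, which runs from 250 bases before to 50 bases after the start, is shown because Abcc2 kept its call most often. The stretch shown runs from 250 to 117 bases before the RefSeq start, on the plus strand at chr19:43782058-43782191 (RefSeq, GRCm38.p6). In capitals it has a match to CAAAG, part of the HNF4 element, which reads CTTTG on this strand:
Abcc2: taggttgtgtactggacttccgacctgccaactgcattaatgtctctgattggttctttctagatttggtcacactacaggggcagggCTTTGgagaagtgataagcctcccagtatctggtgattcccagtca
CAAAG was in 54.0% of 32544 distinct promoter windows of the same length, searched on both strands. A match describes letters only and is not evidence of binding.

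Abcc2 was at 18.8, 5.43, 9.97 and 20.5 CPM in controls 1 to 4 and at 2.03, 0.904, 2.11 and 1.26 CPM in knockouts 1 to 4. Every knockout library was thus under every control, while the controls themselves spanned 3.78-fold. The means were 13.7 ± 7.18 CPM (SD, n = 4) and 1.58 ± 0.589 CPM (SD, n = 4), so the knockout level was 11.5% of the control level. The log2 fold change was -3.10 (SE 0.46, adjusted p = 0.0109 in edgeR). The call was kept in 7 of 8 fits that left out 1 library each, and without knockout 4 the adjusted p was 0.0524. With the adrenal transcripts as a covariate the change was -3.26 (adjusted p = 0.0243 in edgeR), and in the 5 libraries with high Y-linked transcripts it was -3.39 (adjusted p = 0.0163 in edgeR). Liver cells also hold Abcc2, and 9 liver markers, 1 of them called higher and 1 lower, summed to 30.3 to 115 CPM in the controls, 258 and 202 CPM in knockouts 1 and 4, and 13.8 and 18.6 CPM in knockouts 2 and 3. Without knockouts 1 and 4 the Abcc2 change was -3.15, not called in a fit with 6 libraries that was chosen after the data were seen (adjusted p = 0.149 in edgeR). The part of liver cells in the values was not tested beyond this.

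Abcg2 (BCRP) exports urate, sulfated steroids and many drugs across the brush border. Its gene (ENSMUSG00000029802) spans chr6:58584523-58695676 on the plus strand, and RefSeq gives it 3 promoter windows. AGGTCA, the core of nuclear receptor sites, is in 16.2% of all windows, and 1.82% hold 2 or more matches. The first of the 3 Abcg2 windows is shown because it holds 2 matches. Both stand in capitals, and TGACCT is the same site on the other strand. It covers 250 to 11 bases before the start, on the plus strand at chr6:58584283-58584522 (RefSeq, GRCm38.p6):
Abcg2: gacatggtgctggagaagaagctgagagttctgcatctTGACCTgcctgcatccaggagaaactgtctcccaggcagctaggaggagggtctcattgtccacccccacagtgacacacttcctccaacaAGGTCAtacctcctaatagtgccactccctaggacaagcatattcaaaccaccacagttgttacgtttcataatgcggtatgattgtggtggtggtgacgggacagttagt
In the controls Abcg2 was at 93.1, 59.1, 85.7 and 109 CPM, and in the knockouts at 59.0, 43.9, 54.3 and 58.8 CPM. The groups were separated only by the small gap between control 2 (59.1 CPM) and knockout 1 (59.0 CPM). The means of 86.8 ± 20.9 CPM (SD, n = 4) and 54.0 ± 7.07 CPM (SD, n = 4) put the knockouts at 62.3% of the controls, or -0.68 ± 0.18 as log2 fold change (SE; adjusted p = 0.0352 in edgeR).

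Libraries that differed in sex-linked transcripts gave different values for Abcg2. In the 5 libraries with high Y-linked transcripts the mean was 96.0 CPM in 3 controls and 49.1 CPM in 2 knockouts, and the change fitted in these alone was -0.96 (adjusted p = 0.0167 in edgeR). Where Xist was high, the single control was at 59.1 CPM and the 2 knockouts had a mean of 58.9 CPM. With 1 control of that kind, sex-linked and library differences cannot be told apart, and the difference between these sets of libraries was not tested. The call was lost when the Y-linked level entered as covariate (log2 fold change -0.64, adjusted p = 0.0653 in edgeR). It also failed in 7 of 8 fits with 1 library left out, at adjusted p-values of 0.0536 (without knockout 3) to 0.0962 (without control 1), and held without control 2 at 0.0018.

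Slc47a1 encodes MATE1, the proton-coupled exporter that moves organic cations such as metformin into urine. The gene (ENSMUSG00000010122) lies at chr11:61343401-61378345 on the minus strand. Its level in controls 1 to 4 was 47.4, 17.2, 35.9 and 67.2 CPM, and in knockouts 1 to 4 it was 4.14, 1.51, 11.6 and 5.11 CPM. All knockouts were lower than all controls, and the nearest pair were control 2 and knockout 3. The mean fell from 41.9 ± 20.9 CPM to 5.59 ± 4.3 CPM (SD, n = 4 each), to 13.3% of the control level. The log2 fold change was -2.88 (SE 0.58, adjusted p = 0.0198 in edgeR). Fits that left out 1 library called it in 3 of 8, and the adjusted p rose to 0.0565 without control 1, 0.0573 without control 3, 0.0517 without control 4, 0.0608 without knockout 1 and 0.0722 without knockout 4. The log2 fold change in those 8 fits stayed between -3.50 and -2.57.

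Abcc4 (MRP4), an exporter of urate, cyclic nucleotides and antiviral nucleotides, was even across the libraries. The gene (ENSMUSG00000032849) lies at chr14:118482692-118706219 on the minus strand. Abcc4 was at 38.2, 32.3, 38.8 and 36.5 CPM in the controls and at 39.5, 37.5, 38.8 and 34.5 CPM in the knockouts. The ranges of the groups overlapped, and the spread within a group was only 1.20-fold and 1.14-fold. The log2 fold change was 0.042 (SE 0.079, adjusted p = 0.724 in edgeR), and its sign was negative in 3 alternatives, without control 2 among them (-0.013).

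Among the organic anion carriers, Slco1a6, an OATP known mainly from mouse kidney, was the member with the largest fitted fall. The gene (ENSMUSG00000079262) spans chr6:142085761-142208521 on the minus strand, in a cluster of Slco1 genes. Its promoter is shown as that of the most reduced member, with the single CAAAG match in capitals. It covers 250 to 5 bases before the RefSeq start, on the minus strand at chr6:142186154-142186399 (RefSeq, GRCm38.p6), and lies within the annotated gene:
Slco1a6: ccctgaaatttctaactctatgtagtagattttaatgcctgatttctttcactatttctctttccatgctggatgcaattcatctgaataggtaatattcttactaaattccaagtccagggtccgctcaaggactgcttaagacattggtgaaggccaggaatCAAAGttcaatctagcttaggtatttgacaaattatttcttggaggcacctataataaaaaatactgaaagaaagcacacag
Of the members, 8 had promoter windows, 11 in all. CAAAG was in windows of 6 of these 8 members and AGGTCA in windows of 3. The CAAAG set held Abcc2, Slco1a6 and Abcg2, which fell, and Abcc4, Slco4c1 and Abcb1a, which were not called. The Abcg2 match is in another window than the one shown, and the Slco4c1 match lies 15 to 19 bases after the start. The start of the Abcb1a window lies 92986 bases before the annotated start of the gene. Slc47a1 and Abcc6 had no entry.

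In the controls Slco1a6 was at 10.7, 2.27, 11.9 and 26.1 CPM, and in the knockouts at 0.465, 0, 1.28 and 0.288 CPM. Counts show how little was left, with 261, 49, 295 and 575 reads in the controls and 11, 0, 37 and 8 in the knockouts. The 0 in knockout 2 allows up to 3 counts, or 0.151 CPM, for counting error only. The groups did not overlap, although control 2 and knockout 3 came closest. The means were 12.8 ± 9.90 CPM and 0.508 ± 0.549 CPM (SD, n = 4 each), so the knockouts held 3.99% of the control level. The log2 fold change was -4.57 (SE 0.90, adjusted p = 0.0192 in edgeR). The call ended without control 1 (adjusted p = 0.0519), control 3 (0.0569), knockout 1 (0.0580) or knockout 4 (0.0715), with log2 fold changes between -5.55 and -3.96 over the 8 fits. Of the 50-base stretches in its transcripts, 6.59% also occur in other genes, and Gm20400, annotated on the other strand, overlaps it. Reads of such an antisense partner cannot be told apart here, because no strand setting is given in the sources used here.

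Slco4c1, a carrier of digoxin, thyroid hormones and uremic toxins on the blood side of the tubule, leaned the opposite way to Slco1a6. The gene (ENSMUSG00000040693) lies at chr1:96816270-96872171 on the minus strand. Slco4c1 was at 33.0, 54.0, 35 and 22.1 CPM in the controls and at 58.3, 67.9, 42.6 and 53.0 CPM in the knockouts. Control 2 was above knockouts 3 and 4, so the groups overlapped. The means were 36.0 ± 13.3 CPM and 55.4 ± 10.6 CPM (SD, n = 4 each). Their difference was 0.62 ± 0.25 (SE) as log2 fold change, which is not a call (adjusted p = 0.111 in edgeR). Without control 2 it was 0.88 (adjusted p = 0.0087 in edgeR), and with control 2 and knockout 3 both left out it was 0.98 (adjusted p = 0.0030 in edgeR). Both fits left no control with high Xist. The antisense gene Panct2 overlaps Slco4c1.

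Slco1a1 (OATP1A1) is known as an androgen-dependent carrier of the male mouse kidney. The gene (ENSMUSG00000041698) lies at chr6:141907282-141946962 on the minus strand. Its counts were 3, 0, 0 and 0 in the controls and 0, 0, 3 and 0 in the knockouts. Both groups were at the floor of 3 counts, 0.104 to 0.151 CPM depending on the library, so no fold is given. The 5 libraries with high Y-linked transcripts included both that held its few reads, and the gene had at most 3 counts in each of the 5.

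Abcb1a and Abcb1b, which both encode P-glycoprotein in the mouse, are neighbours on the plus strand of chromosome 5. Abcb1a (ENSMUSG00000040584) covers chr5:8660077-8748575 and Abcb1b (ENSMUSG00000028970) chr5:8798147-8866315. Their coding sequences, 3828 bases each in GENCODE M21, were identical at 87.7% of aligned positions. The longest identical run is 338 bases, and its first 300 bases are printed because a read within them fits both genes. They lie at positions 1357 to 1656 of the Abcb1a coding sequence and 1366 to 1665 of the Abcb1b coding sequence:
Abcb1a and Abcb1b: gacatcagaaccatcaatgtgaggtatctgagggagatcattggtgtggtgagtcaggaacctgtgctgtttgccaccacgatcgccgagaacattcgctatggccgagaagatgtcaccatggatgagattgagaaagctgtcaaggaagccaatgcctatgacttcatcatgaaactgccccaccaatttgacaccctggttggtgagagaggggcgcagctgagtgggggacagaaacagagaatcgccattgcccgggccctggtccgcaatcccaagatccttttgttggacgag
Over whole transcripts, 16.3% of the 50-base stretches of Abcb1a occur in Abcb1b, and 11.1% of those of Abcb1b occur in Abcb1a. Counting all other genes, 22.5% of the stretches of Abcb1a and 12.8% of those of Abcb1b are shared. How reads that match both genes of the pair were counted is not given in the sources used here. The split between the pair is therefore uncertain. On the other strand, Gm42686 overlaps Abcb1a and the antisense gene Gm5106 overlaps Abcb1b. On the same strand, Gm42684 overlaps Abcb1a and 7330423F06Rik overlaps Abcb1b.

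Abcb1a was at 0.901, 4.22, 1.61 and 1.32 CPM in the controls and at 9.42, 4.92, 2.56 and 7.12 CPM in the knockouts. Control 2 was above knockout 3, and the other controls were below every knockout. The means were 2.01 ± 1.5 CPM and 6.01 ± 2.94 CPM (SD, n = 4 each), and the log2 fold change of 1.58 was not called (SE 0.53, adjusted p = 0.0717 in edgeR). Without control 2, which left no control with high Xist, it was 2.22 (adjusted p = 0.0065), and without knockout 3 it was 1.85 (adjusted p = 0.0395). The Y-linked covariate gave 1.32 (adjusted p = 0.0305 in edgeR) and the 5 libraries with high Y-linked transcripts 1.54 (adjusted p = 0.0411 in edgeR), while the adrenal covariate gave 1.15 (adjusted p = 0.213 in edgeR). Endothelial cells also hold P-glycoprotein, and all 12 endothelial markers had a log2 fold change under 0, with 1 called and sums of 772 to 1171 CPM in the controls and 539 to 904 CPM in the knockouts. Leukocyte markers summed to 121 to 140 CPM and 132 to 174 CPM, with 2 of 9 tested called higher and Cd3e at 0 in 4 libraries. The part of either cell type in the Abcb1a values was not tested.

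Abcb1b was at 2.01, 3.89, 1.94 and 1.91 CPM in the controls and at 35.6, 5.92, 2.77 and 7.70 CPM in the knockouts. Knockout 1 was far above the other 7 libraries. The log2 fold change of 2.41 was not called (SE 0.74, adjusted p = 0.0566 in edgeR), on means of 2.44 ± 0.973 CPM and 13 ± 15.2 CPM (SD, n = 4 each). Leaving out knockout 1 lowered it to 1.16 (adjusted p = 0.110), and leaving out control 2 or knockout 3 gave calls at 0.0333 and 0.0265. The ratio of Abcb1b to Abcb1a in CPM was 3.78 in knockout 1 and 0.923 to 2.23 in the other 7 libraries.

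Knockout 1, with the highest Abcb1b, also had the highest adrenal sum, and knockout 4 was second in both. Both were also the knockouts with high Xist, so among the knockouts adrenal and sex-linked differences cannot be told apart. Control 2, the only control with high Xist, had the highest Abcb1b of the controls. Of 10 adrenal genes tested by edgeR, all had a log2 fold change above 0 and 0 were called. At an unadjusted p under 0.05 in edgeR there were 6, beside 6489 of all 18485 genes. With limma-voom 0 of 10 were called, beside 44.9% of all genes, and 0 had an unadjusted p under 0.05. DESeq2 tested 9 and called 4, beside 22.5% of all genes. Cyp11b1 was at 0 in 1 library. Control 4, next in the adrenal sum at 154 CPM, had Abcb1b at 1.91 CPM, the lowest of all. With the adrenal level as a covariate the Abcb1b change was 1.11 (adjusted p = 0.224 in edgeR). The Y-linked covariate gave 1.55 (adjusted p = 0.0676 in edgeR), and the libraries with high Y-linked transcripts alone 1.14 (adjusted p = 0.0663 in edgeR). Without knockouts 1 and 4 and control 4 the Abcb1b change was 0.73 (adjusted p = 0.542) and that of Abcb1a was 0.73 (adjusted p = 0.657). That fit was chosen after the data were seen and called 1 gene of 19154. The part of adrenal tissue in the values was not tested beyond these fits. Abcb4, the phosphatidylcholine exporter next in line on the chromosome, had a log2 fold change of 0.77 (adjusted p = 0.103 in edgeR), and Crot beyond it -0.014 (adjusted p = 0.916).

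**Figure D2:**
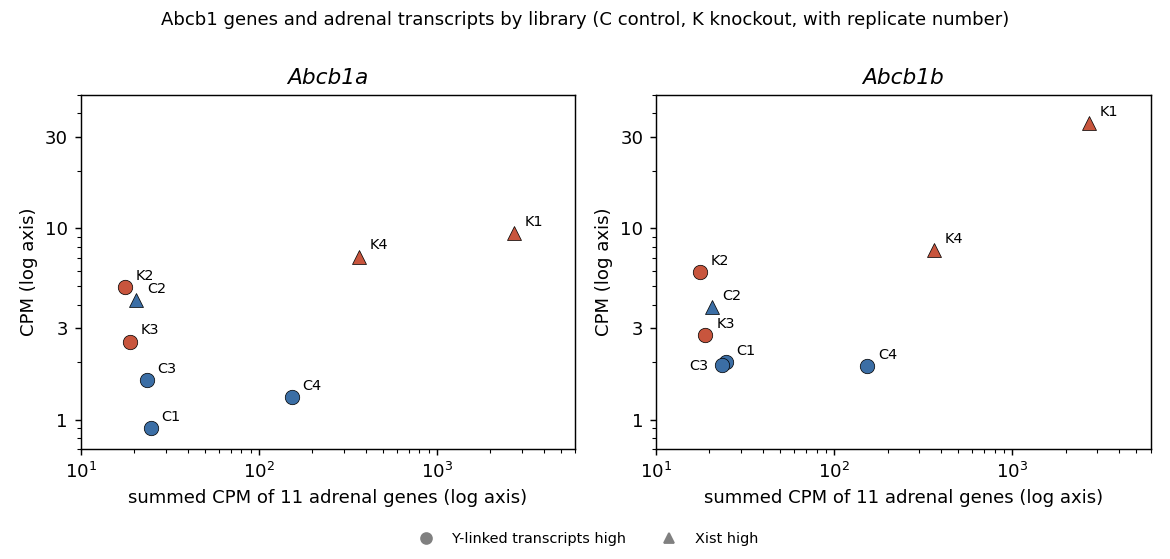
CPM of Abcb1a and Abcb1b (vertical log axis) against the summed CPM of 11 adrenal genes (horizontal log axis) for 4 control (C) and 4 knockout (K) libraries, triangles marking high Xist. Knockouts 1 and 4 lie highest on both axes in both panels, while control 4 has a raised adrenal sum and low Abcb1 levels.

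Abcc6, whose loss causes pseudoxanthoma elasticum in people through low pyrophosphate, was the only member called higher. The gene (ENSMUSG00000030834) lies at chr7:45967555-46030302 on the minus strand. Its level was 0.983, 1.16, 0.928 and 1.18 CPM in the controls and 1.90, 1.71, 1.56 and 2.23 CPM in the knockouts. The groups did not overlap, but the level was low, with 98 reads over all controls and 186 over all knockouts. The means were 1.06 ± 0.126 CPM and 1.85 ± 0.291 CPM (SD, n = 4 each), or 0.80 ± 0.21 as log2 fold change (SE; adjusted p = 0.0364 in edgeR). The call held in 2 of 8 fits with 1 library left out, without control 2 (0.0198) and without knockout 3 (0.0362). In the others the adjusted p ran from 0.0775 (without knockout 2) to 0.110 (without control 3). With the adrenal covariate the change was 0.69 (adjusted p = 0.0886 in edgeR), and with no filter on low counts the adjusted p was 0.0814. The call also ended with the Y-linked covariate (0.73, adjusted p = 0.0568 in edgeR) and in the 5 libraries with high Y-linked transcripts (0.66, adjusted p = 0.128 in edgeR).

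**Figure D3:**
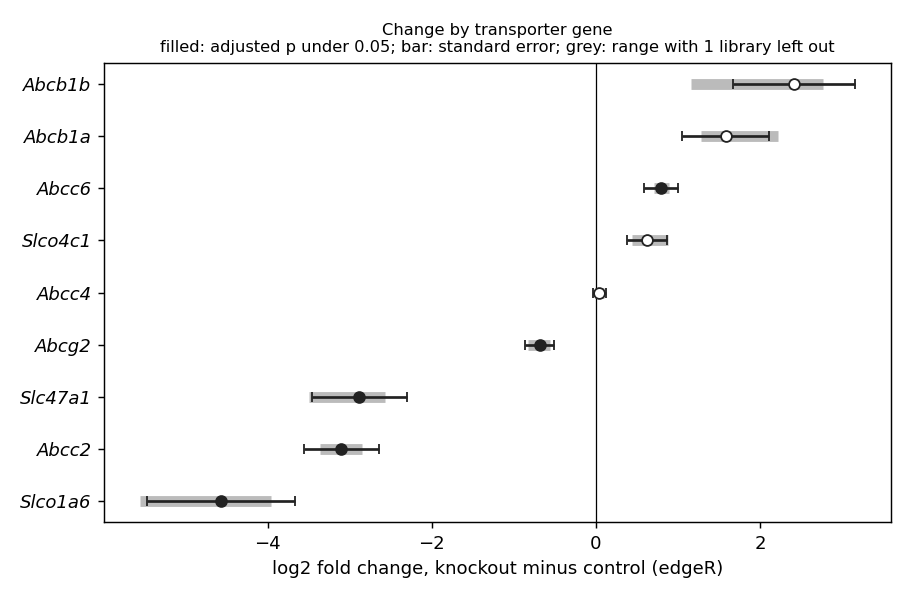
Log2 fold change of knockout over control (horizontal axis) for the 9 transporters tested, with standard errors as black bars, the range over 8 fits with 1 library left out in grey, and filled points for an adjusted p under 0.05. Slco1a6, Abcc2 and Slc47a1 lie between -4.57 and -2.88, and the grey band of Abcb1b extends down to 1.16.

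The same pair of libraries narrowed most of these differences. Control 2 was the control nearest to the knockouts in 7 of the 8 tested members other than Abcc4, and knockout 3 was the knockout nearest to the controls in 7 of the 8. Leaving out control 2 raised the number of called members from 5 to 8, and leaving out knockout 4 lowered it to 0. In the edgeR fit without knockout 4, 8 of 9 members had an unadjusted p under 0.05, beside 5035 of 18672 genes. The share of all genes called moved likewise, to 37.4% without control 2 and 0.819% without knockout 4. Control 2 was the only control with high Xist. In each fit without it, high Xist occurred in knockouts only, so sex-linked differences and genotype are partly tied in its calls. DESeq2 on all 8 libraries called 7 members, beside 22.5% of all genes.

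Per kilobase of transcript, Slc47a1 (12.4 CPM per kilobase) and Abcg2 (10.6) led the controls, followed by Slco4c1 (7.34), Abcc4 (6.37), Slco1a6 (3.35) and Abcc2 (1.60). Abcb1a (0.367), Abcb1b (0.305), Abcc6 (0.186) and Slco1a1 (0.0058) came last. Neighbours in that order overlapped between libraries, except that Abcb1b stayed above Abcc6 and Abcc6 above Slco1a1. In the knockouts Slco4c1 led with 11.3 CPM per kilobase, clear of Abcg2 (6.63) and Abcc4 (6.56), which overlapped. Slc47a1 came next (1.65), overlapping with Abcb1b (1.63), which in turn overlapped with Abcb1a (1.1). Abcc6 (0.323) was under every Abcb1a value but overlapped with Abcb1b, and it was clear of the next lower gene, Abcc2. Abcc2 (0.185) overlapped with Slco1a6 (0.133), and Slco1a6 with Slco1a1 (0.0049). Slco4c1 was also the leading member in control 2, at 11 CPM per kilobase against 7.25 for Abcg2 and 5.08 for Slc47a1.

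Proximal tubule markers were then used as a yardstick, a comparison added after the data were seen. In each library the mean log2 CPM of the 15 markers was subtracted from the log2 CPM of the transporter (prior count 2), and the groups were compared by a two-sided exact permutation test, whose smallest possible p with 4 against 4 libraries is 0.0286. Abcc2 and Slc47a1 showed no detectable difference on this scale, at 0.29 (exact p = 0.429) and 0.17 (exact p = 0.257), knockout minus control. Slc47a1 was at -0.53 ± 0.11 in the controls and -0.36 ± 0.26 in the knockouts (SD, n = 4 each). Abcc2 was at -2.16 ± 0.12 in the controls and -1.87 ± 0.71 in the knockouts (SD, n = 4 each). Its knockouts ran from -2.55 to -1.17, past the controls (-2.27 to -2.01) on both sides. Slco1a6 differed by -1.37 (exact p = 0.0857, 0.110 adjusted over the 9 members), and the prior count raises its low knockout values. For the 6 other members this scale mostly restates the fall of the markers themselves (median log2 fold change -2.99). The same test gave each of the 6 its smallest possible value (exact p = 0.0286, 0.0429 adjusted over the 9 members). Because of the fall of the markers, these p-values are not read as a change of the transporters. The differences were 2.58 for Abcg2, 3.28 for Abcc4, 3.91 for Slco4c1, 3.98 for Abcc6, 4.86 for Abcb1a and 5.02 for Abcb1b.

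**Figure D4:**
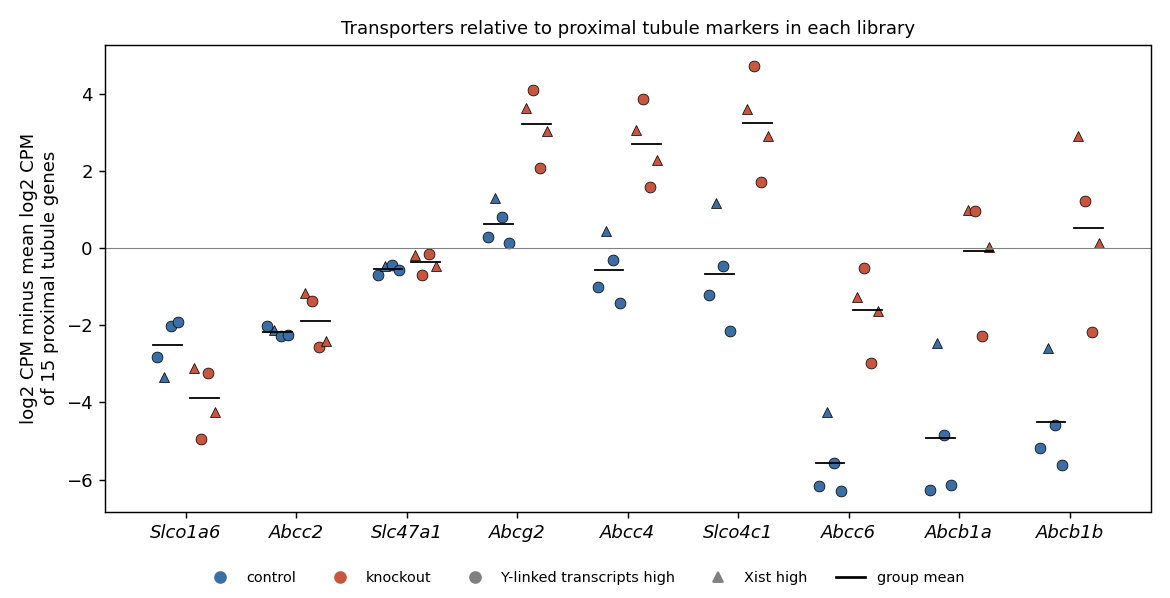
Log2 CPM of each of 9 transporters minus the mean log2 CPM of 15 proximal tubule genes (vertical axis) in 4 control and 4 knockout libraries, with group means as lines and high-Xist libraries as triangles. Slc47a1 keeps nearly the same distance from the markers in both groups. Abcc2 does so only in its mean, with knockouts scattered on both sides of the controls. The 6 members from Abcg2 to the right are higher in all knockouts, on a scale that includes the fall of the markers.

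Over the 8 libraries the correlation with the mean marker level (Pearson's r on log2 CPM) was 0.99 for Slc47a1, 0.98 for Slco1a6, 0.97 for Abcc2 and 0.92 for Abcg2. These are descriptions over libraries that share the 2 groups. With the endothelial markers r was 0.94 for Slc47a1 and 0.95 for Slco1a6. Slco4c1 ran opposite to the proximal tubule markers, at -0.91 over all libraries, -0.95 within the 4 controls and -0.99 within the 4 knockouts, and to the endothelial markers nearly as much, at -0.94, -0.95 and -0.97. Among the 4 members that fell, r between pairs was between 0.92 and 0.99.

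The genes most like each member were sought among 14195 genes by Pearson's r over the same 8 libraries. Slc47a1 was nearest to Spp2, Gsta2 and Tinag, each with r = 0.998. Slco1a6 was nearest to Slc23a1, the sodium-ascorbate carrier of the brush border (0.998), Slc6a13, a GABA transporter (0.997), and Lrp2, the endocytic receptor megalin (0.996). Abcc2 was nearest to Dap3 (0.992), Rdh19 (0.991) and Gatb (0.990), and Abcg2 to Msrb1 (0.994), Slc31a1 (0.993), a copper importer, and Brms1 (0.991). Slco4c1 was nearest to Pdcd4 (0.994), Tut4 (0.993) and Crispld2 (0.991), none of which was called. Abcb1a was most like Sppl2a (0.986) and Zcchc7 (0.983), and Abcb1b most like Slc23a2 (0.990), Lpar6 (0.980) and Nat10 (0.977). For Abcc6 these were Tmod2 (0.994), Slc18b1 (0.991) and Gng3 (0.989). Abcc4 had the weakest likeness, with Aldh18a1 (0.920), Tut7 (0.913) and Kremen1 (0.907).

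Further genes of the same families gave calls in the Slco and MATE list but not in the ABC list, against 14.9% called over all genes. Of 9 further ABC genes 7 were tested and 0 were called by edgeR. Of the 7, 4 had an unadjusted p under 0.05 in edgeR, beside 6489 of all 18485 genes tested. DESeq2 called 2, beside 22.5% of all genes. Of 10 further Slco and MATE genes 7 were tested and 3 were called. Slco4a1, a thyroid hormone carrier, fell from 10.9 ± 3.89 to 3.02 ± 1.93 CPM (adjusted p = 0.0273 in edgeR, log2 fold change -1.84). Slco3a1 rose from 37.2 ± 1.28 to 46.8 ± 2.30 CPM (adjusted p = 0.0172 in edgeR, log2 fold change 0.33), and Slco5a1 rose from 2.68 to 4.81 CPM (log2 fold change 0.85, adjusted p = 0.0450 in edgeR). Slco1a4, the neighbour of Slco1a1, was at 6.88, 18.5, 6.30 and 4.95 CPM in the controls and at 22.2, 23.1, 16.8 and 22.0 CPM in the knockouts, which was not called (log2 fold change 1.20, adjusted p = 0.0616 in edgeR). It thus ran in the direction opposite to Slco1a6, in the same cluster on chromosome 6, and it is named here after its values were seen.

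Most of the Slc22 carriers listed load the tubule cell from the blood side with anions and cations that brush border exporters release, while Slc22a12 (URAT1) takes urate back up from the urine. Of 6 listed, 5 were tested, all 5 had a log2 fold change under 0, and 4 fell, against 8.27% of all genes called lower. Like the members, the lists were chosen with earlier results known. Slc22a2 (OCT2), the cation carrier that works in series with Slc47a1, fell from 29.5 ± 20.4 to 0.810 ± 0.765 CPM (log2 fold change -5.11, adjusted p = 0.0120 in edgeR). Slc22a6 (OAT1) fell from 87.4 to 3.70 CPM (log2 fold change -4.51, adjusted p = 0.0164 in edgeR).

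Of 14 transcription factors known to act on transporter genes, 4 fell, against 8.27% of all genes called lower, with a median of -0.71. Hnf4a, a nuclear receptor of the proximal tubule, fell from 115 ± 40.8 to 23.9 ± 14.1 CPM (log2 fold change -2.26, adjusted p = 0.0336 in edgeR), and Nr1h4, the bile acid receptor FXR, from 15.5 to 3.39 CPM (log2 fold change -2.18, adjusted p = 0.0408 in edgeR). Nfe2l2 (NRF2) was at 82 CPM in both groups, and Ahr (22.7 and 23.4 CPM) was not called either. All 6 apical scaffold genes had a log2 fold change under 0 and 4 fell, beside the same 8.27% of all genes. Pdzk1, which anchors transporters at the brush border, fell from 103 ± 66.3 to 11.6 ± 7.99 CPM (log2 fold change -3.14, adjusted p = 0.0264 in edgeR). Slc9a3r1 and Slc9a3r2 fell by 0.80 and 0.78 on the log2 scale (adjusted p = 0.0154 and 0.0286 in edgeR). Slc22a8 (-1.85), Ppara (-1.49) and Ezr (-0.69) were also called in these lists, at adjusted p-values of 0.0264, 0.0473 and 0.0345, and are named after their values were seen, as are Nfe2l2 and Ahr. All these calls were lost without knockout 4, a fit that called 0 genes of these lists.

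**Figure D5:**
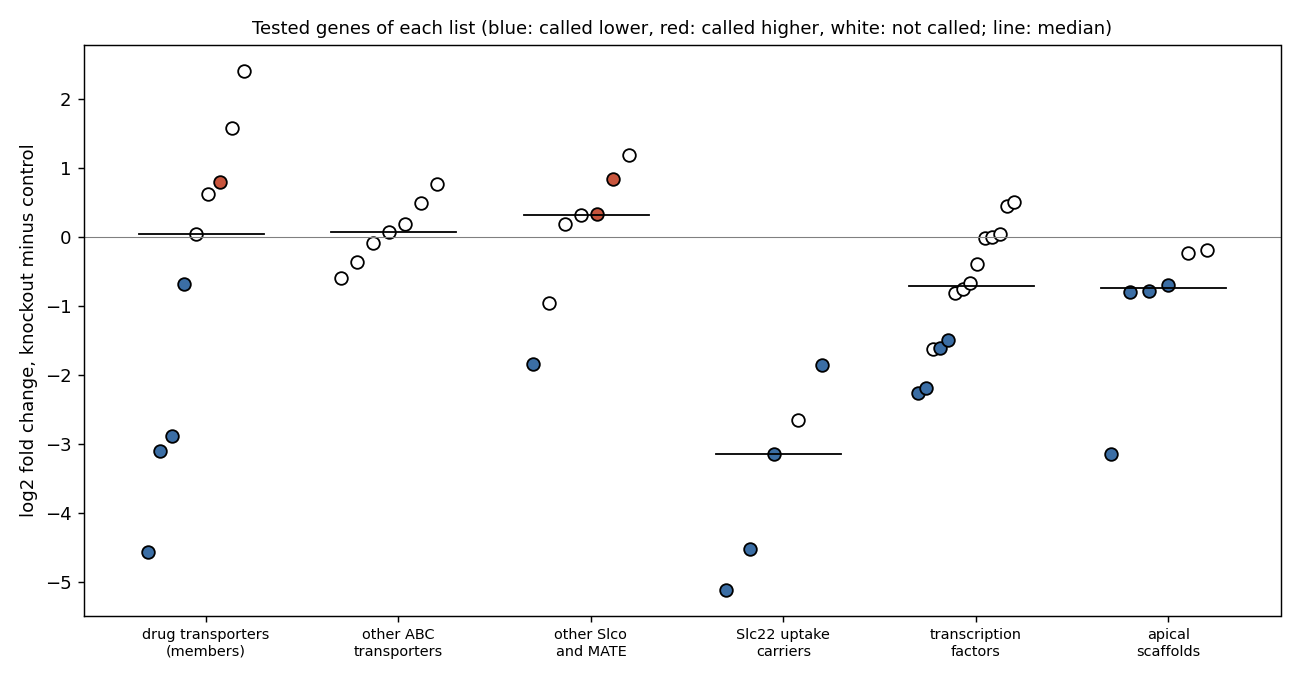
Log2 fold change of knockout over control (vertical axis) for each tested gene of the 10 transporters and of 5 lists, blue where called lower, red where called higher and white where not called, with the median as a line. The Slc22 carriers lie all under 0, while the drug transporters extend from -4.57 to 2.41.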

How the data were processed

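Raw counts of reads per gene, with gene length and exon coordinates, are what the authors deposited for each library, per the file headers. The submitters' processing notes name Trimmomatic 0.36, STAR 2.5.2b, featureCounts, Subread 1.5.2, DESeq2 and GRCm38, without roles. The series-wide table and the library tables differed in 0 cells, and 48970 of 49315 IDs had a GENCODE M21 symbol. Libraries were grouped by the labelled genotype, 4 against 4. Counts were scaled by TMM, filtered with filterByExpr and tested with edgeR 4.0.16 (quasi-likelihood, R 4.3.3), with Benjamini-Hochberg adjustment over 18485 genes. A call is an adjusted p under 0.05, and unnamed adjusted p-values are from this test, which was tested on simulated data. Standard errors were obtained from the fold change and test statistic. Named genes were the 10 members, up to 3 calls per direction of each list, at most 3 genes per marker list, and the 3 genes most correlated with each tested member. Some results are not reported here. Members and lists were chosen with earlier results of these data known. Alternatives used DESeq2 1.42.0 (tool and size factors), limma-voom 3.58.1 with sample weights, other filters, Y-linked and adrenal covariates, a replicate block, and libraries left out. Total counts of 19524945 to 28544511 limit the precision of low genes. Promoters came from RefSeq (GRCm38.p6) and matched 8 members. Protein identity was not computed, and coding sequences of GENCODE M21 were aligned in its place.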

Additional observations from a re-analysis of the deposited data

Results flagged for a closer look

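Abcb1b stood out for single libraries. Among the controls, control 2 had the highest Abcb1b at 3.89 CPM, and the gap to the next library was 0.950 of the range of the group. Among the knockouts, knockout 1 had the highest at 35.6 CPM, with a gap of 0.850 of the range. Both gaps are past the limit of Dixon's test for 4 samples, which chance alone would pass in about 1 in 20 groups. Of the 20 groups of 4, those of Slco1a1 were not held to the limit, as no library had over 3 counts. Both libraries had high Xist. The adrenal sum was 2700 CPM in knockout 1 and 20.5 CPM in control 2.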

How the results depend on the processing

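The log2 fold changes of Abcc2, Slco1a6, Slc47a1, Abcg2, Abcc6, Abcb1a, Abcb1b and Slco4c1 kept their direction in all 21 alternatives. That of Abcc4 turned negative with limma-voom (-0.044) and without control 2 and knockout 3 (-0.032), and with 1 library left out it ran from -0.013 (without control 2) to 0.099 (without knockout 4). With 1 library left out, called members ranged from 0 to 8 (5 in the full fit), members called lower from 0 to 4, members called higher from 0 to 4, called genes from 153 to 7084, and called genes of the 5 lists from 0 to 28 (15 in the full fit). Without control 2 and knockout 3, 8 members were called (4 higher), with 7903 genes and 30 of the lists. DESeq2 called 3 members higher, 4468 genes and 24 of the lists, and limma-voom 3, 8302 and 30. The adrenal covariate left 0 members called higher, 1305 genes and 8 of the lists. In 2 alternatives chosen after the data were seen, without knockouts 1 and 4 and also without control 4, edgeR called 0 members, 0 lower and 0 higher, 0 genes of the lists and 1 gene in all, from fewer libraries. In these fits 4 members had an unadjusted p under 0.05 in each, as did 3504 and 2378 genes, and DESeq2 was not run on them. Without knockout 4, 8 members and 5035 genes had an unadjusted p under 0.05. The cause of the other changes was not tested.

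Deviations from the group means correlated at -0.11, 0.33, 0.23 and -0.06 between libraries with the same replicate number. Controls 2 and 3 correlated best with the knockout of their own number, and controls 1 and 4 best with knockout 3 (0.10 and 0.40). The labels do not say that the number pairs libraries, and so few correlations cannot decide it. With the replicate block, 5 members and 3229 genes were called, Slco4c1 entering (adjusted p = 0.0356 in edgeR) and Abcc6 leaving (0.0617). Depth limits Slco1a1, Slco1a6 in the knockouts and Abcc6.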
